A study of Mus musculus with 24 samples.

Results

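The chemokines, small secreted proteins that direct the movement of white blood cells, and their receptors were followed in liver, heart and brain of mice given an extract of Ephedra herba. Members were the genes whose annotated symbol begins with Ccl, Cxcl, Cx3cl, Xcl, Ccr, Cxcr, Cx3cr or Xcr and a number. This rule took 70 probes of 55 genes, out of 16110 genes with a symbol on the array, and each gene was read from its probe with the highest mean. Of the 55 members, 37 were ligands and 18 were receptors. The arrays came from 5-week-old female C57BL/6 mice given an aqueous extract of the herb by mouth at 50 mg/kg and from untreated mice of the same kind. In each of the 3 tissues there was 1 array for each of 7 treatment times in hours (h) or days (d), which were 1 h, 6 h, 12 h, 24 h, 3 d, 5 d and 10 d, and 1 for untreated mice, which makes 24 arrays. The sources used here do not say whether dosing was repeated, whether 1 mouse gave all its tissues, whether mice were pooled or when in the day they were sampled.

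Chemokine ligands bind receptors that span the cell membrane and signal through Gi proteins, and cells then move toward the higher concentration of ligand. Inflammatory chemokines are switched on by NF-kB and interferon signalling and draw neutrophils, monocytes and T cells, while homing chemokines are made in the absence of inflammation and place lymphocytes, stem cells and resident macrophages in their tissues. In brain, the neuronal ligand fractalkine (Cx3cl1) and its receptor on microglia (Cx3cr1) are the pair studied most, and in liver and heart Cxcl12 from stromal and endothelial cells is a constitutive ligand.

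The values are log2 intensities as deposited, centred near 0 on each array, so a level of 0 is the array median. No tissue and time had a replicate. Array medians ran from -0.016 to 0.0026, but the spread differed by tissue, with a median absolute deviation of at least 0.356 in liver, 0.596 in heart and 0.803 in brain. The labelled tissues carried their markers: 6 of 6 hepatocyte genes in liver, 5 of 5 cardiomyocyte genes in heart, and 4 of 4 oligodendrocyte and 4 of 6 neuron genes in brain lay above the median on all 8 arrays of that tissue. Some arrays stood apart. Those of 6, 12 and 24 h and 5 d shared a lower tail in each tissue (5th percentile -0.474 to -0.459 in liver, -0.721 to -0.714 in heart and -0.940 to -0.932 in brain). The arrays of untreated mice, 1 h and 10 d had a higher one (-0.445 to -0.435, -0.707 to -0.698 and -0.913 to -0.912 in the same tissue order). The 3 d array lay between these sets in liver (-0.447) and brain (-0.930). In heart (-0.714) it lay inside the range of the 6, 12 and 24 h and 5 d arrays. The upper tail differed more in liver and heart. In liver the 95th percentile was 5.15 to 5.36 at 6, 12 and 24 h and 4.13 to 4.52 on the other arrays. In heart it was 4.36 to 4.44 at 6, 12 and 24 h and 5 d, and 4.635 to 4.885 on the others. In brain the same sets overlapped (4.43 to 4.73 and 4.52 to 4.81). The set of 6, 12 and 24 h and 5 d arrays and the times themselves cannot be told apart. The heart arrays of untreated mice, 1 h and 6 h also carried hepatocyte genes (list means 2.74, 3.23 and 1.99, against 0.12 to 1.23 on the other 5). The untreated and 10 d brain arrays carried cardiomyocyte genes at means of 0.80 and 0.71, with 0.20 at 5 d and -0.46 to -0.26 on the other brain arrays. In liver, cardiomyocyte genes averaged 0.82 at 1 h and 0.43 at 24 h, with -0.27 to -0.19 on the other liver arrays.

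Most of the family lay low. Of the 55 members, 25 lay above the array median on at least 4 of the 24 arrays and were tested (45.5%), against 67.9% of all genes. These were 22 ligands and the receptors Ccr6, Cx3cr1 and Cxcr4. Another 21 members were above the median on no array and 9 on 1 to 3 arrays, and the levels of these 30 ran from -1.19 to 0.28. They include the neutrophil-attracting ligands Cxcl2, Cxcl3, Cxcl5 and Cxcl15, the inflammatory ligands Ccl1, Ccl2, Ccl3, Ccl7, Ccl26 and Xcl1, and, among those grouped as homing or constitutive, Ccl17, Ccl20, Ccl22, Ccl28 and Cxcl17. They also include the receptors Ccr1, Ccr1l1, Ccr2, Ccr3, Ccr4, Ccr7, Ccr8, Ccr9, Ccr10, Cxcr1, Cxcr2, Cxcr3, Cxcr5, Cxcr6 and Xcr1. By role, 11 of 16 homing or constitutive ligands, 8 of 14 inflammatory CC and XC ligands, 2 of 2 interferon-inducible CXC ligands, 1 of 5 neutrophil-attracting ligands and 3 of 18 receptors were tested. Only Ccl25, Ccl27a and Cxcl12 were above the median on all 24 arrays. A tissue's 8 arrays were all above it for 13 of the 55 members in liver (42.3% of all genes), 18 in heart (46.7%) and 6 in brain (48.4%).

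The tissues were compared first, with the 8 times as replicates of a tissue and time as a block (limma with Benjamini-Hochberg adjustment, 8 arrays each). Between liver and brain, 20 of the 25 tested members differed, 15 higher and 5 lower in liver, where 76.2% of all tested genes differed (30.6% higher and 45.6% lower). Between liver and heart, 19 differed, 7 higher and 12 lower in liver, where 65.3% of all genes did (24.7% higher and 40.6% lower). Between heart and brain, 24 differed, 19 higher and 5 lower in heart, where 71.4% of all genes did (34.3% higher and 37% lower). The median difference of the tested members was 0.41 between liver and brain, -0.21 between liver and heart and 0.73 between heart and brain, against -0.16, -0.12 and 0.03 over all genes. Genes that passed the filter through 1 bright tissue had to differ, so these counts are a description. Ccl8 and Cxcr4 reached the needed 4 arrays only with those of heart, and Cxcl10 and Cxcl13 only with those of liver, so their differences from that tissue are given without a p. Without the filter, 48 of the 55 members differed between liver and brain (81.8% of all genes), 40 between liver and heart (69.4%) and 49 between heart and brain (74%).

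Low signal itself differed between tissues. The 21 members that were never above the median had a median level of -0.32 in liver, -0.57 in heart and -0.75 in brain. Their median difference was 0.44 between liver and brain, 0.19 between liver and heart and 0.21 between heart and brain, with 95th percentiles of 0.62, 0.37 and 0.39. The 3662 genes of the whole array with this pattern gave 0.46, 0.24 and 0.22. The called differences of Ccl11, Ccl19, Ccl24, Ccl4, Ccl8 and Cxcr4 between liver and brain (0.16 to 0.53) lay inside that range. In whole tissue, fewer cells that carry a transcript and less transcript per cell cannot be told apart.

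**Figure D1:**
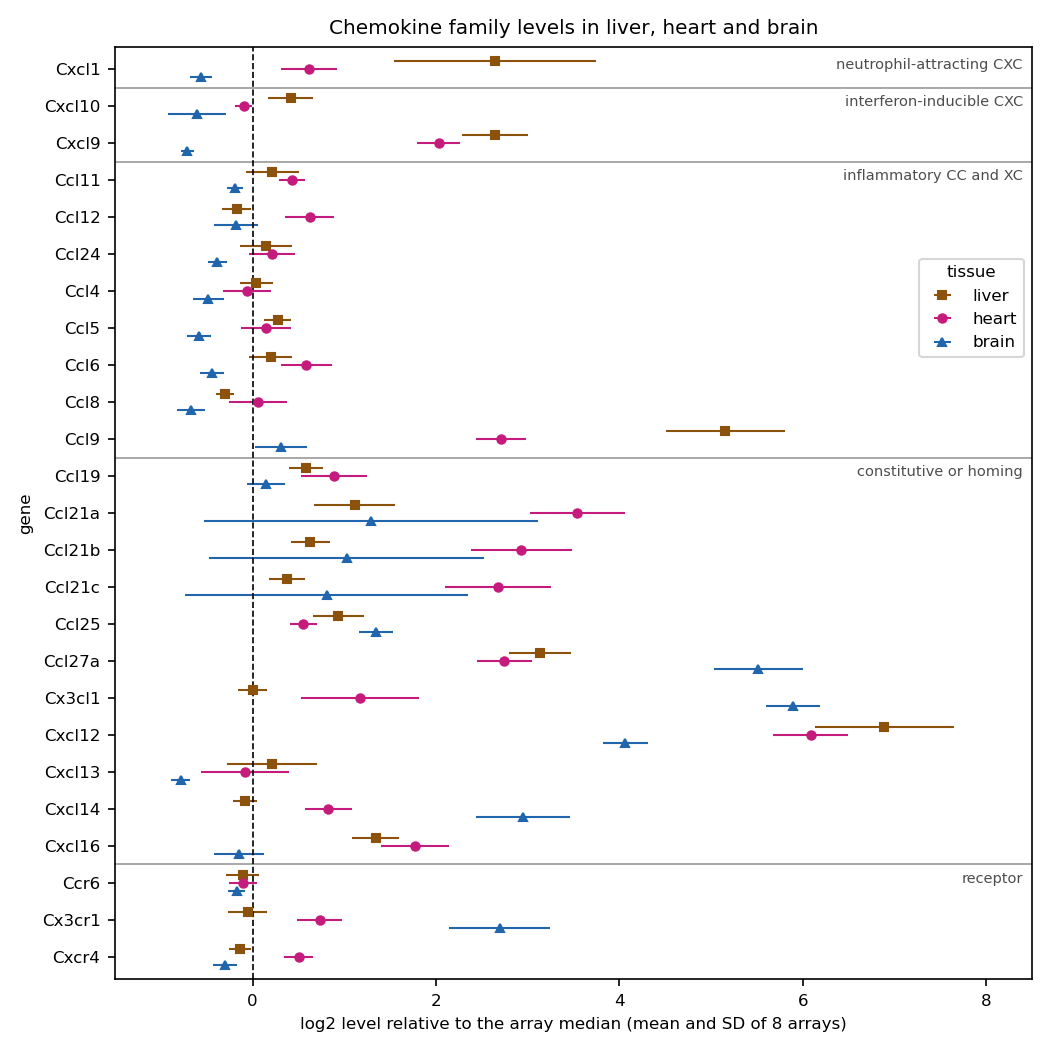
Mean log2 level relative to the array median, with SD over 8 arrays of different times, for the 25 tested members in liver (squares), heart (circles) and brain (triangles), grouped by role. Cx3cl1, Cxcl14, Cx3cr1 and Ccl27a have their highest mean in brain, Ccl9, Cxcl1, Cxcl9 and Cxcl12 have theirs in liver, and the 3 Ccl21 genes have theirs in heart. The Ccl21 genes in brain have the widest bars.

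Cxcl1, the mouse neutrophil attractant also called KC, was the only tested ligand of its role and was mainly a liver transcript. In liver its level was 4.90 in untreated mice, 2.73 at 1 h, 2.41 at 6 h, 1.51 at 12 h, 1.98 at 24 h, 3.54 at 3 d, 1.91 at 5 d and 2.18 at 10 d. In heart it was 0.74, 1.25, 0.46, 0.47, 0.44, 0.57, 0.23 and 0.78 at the same times, and in brain it stayed between -0.73 and -0.40. All 8 liver arrays were above all 8 heart arrays, and all heart arrays were above all brain arrays. The means were 2.64 ± 1.10 in liver, 0.62 ± 0.31 in heart and -0.57 ± 0.12 in brain (SD, n = 8 each). The difference was 3.21 between liver and brain (SE 0.29, adjusted p = 9.03e-09, limma) and 2.03 between liver and heart (adjusted p = 6.00e-06, limma).

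Within liver, Cxcl1 on every treated array was below the untreated array, by 1.35 at 3 d and 3.39 at 12 h. The 7 treated arrays averaged 2.32 ± 0.66 (SD, n = 7), against 4.90 on the 1 untreated array. The difference of -2.57 (SE 0.44) did not pass the test over all genes (adjusted p = 0.0731, limma with Benjamini-Hochberg adjustment). Over 16 alternatives of processing the difference ran from -2.84 to -2.44. It passed in 2 of them, without the 3 d arrays (-2.78) and with a variance trend and robust moderation (-2.57). In the other 14 it did not pass. The untreated array was also the highest in liver for S100a8, a granule gene of neutrophils, at 1.48 against -0.18 to 1.00 on the treated arrays. The mean of the 7 neutrophil markers on the array ran from -0.20 to 0.09 on treated liver arrays and was 0.25 on the untreated one. This mean includes S100a8 itself, so it is not a separate reading. Of the 7 markers, 0 were above the median on all 8 liver arrays. The part of these cells in the Cxcl1 value was not tested.

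The promoter of Cxcl1 is shown because it carries the NF-kB motif of this gene. Sequences are from RefSeq, build GRCm38.p6, and cover the 250 bases before the annotated start at chr5:90890995-90891244 on the plus strand. Capitals mark GGGANNTTCC, searched on both strands. Its 2 matches overlap, and the run they form begins 71 bases before the start.
Cxcl1: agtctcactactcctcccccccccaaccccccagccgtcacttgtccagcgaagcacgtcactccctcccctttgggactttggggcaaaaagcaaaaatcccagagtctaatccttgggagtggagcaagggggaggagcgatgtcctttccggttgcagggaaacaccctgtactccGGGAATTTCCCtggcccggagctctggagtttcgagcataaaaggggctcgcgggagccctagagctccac
The same motif was found in 1.21% of the 32851 mouse promoters in the table, cut to this length, and in 6 of the 41 members with a promoter in the table: Ccl1, Ccr3, Cxcl1, Cxcl10, Cxcl2 and Cxcl3. The motif GAAANNGAAA, as in interferon-response elements and also searched on both strands, was found in 2.98% of promoters and in Ccl19, Cxcl10 and Cxcl14. Both motifs were chosen after the values were seen. Of these genes, Ccl1, Ccr3, Cxcl2 and Cxcl3 were not above the median on enough arrays to be tested.

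The interferon-inducible ligands Cxcl9 and Cxcl10, which draw activated T cells and NK cells through the receptor Cxcr3, were higher in liver and heart than in brain. Cxcl9 ran from 1.88 (5 d) to 3.08 (1 h) in liver, from 1.58 (12 h) to 2.33 (6 h) in heart and from -0.82 to -0.60 in brain. The brain arrays did not overlap those of the other tissues. The means were 2.64 ± 0.36, 2.03 ± 0.23 and -0.71 ± 0.07 in liver, heart and brain (SD, n = 8 each), a difference of 3.35 between liver and brain (SE 0.11, adjusted p = 5.11e-15, limma) and 0.61 between liver and heart (SE 0.11, adjusted p = 0.000138, limma). Cxcl10 averaged 0.41 ± 0.25 in liver, -0.09 ± 0.09 in heart and -0.61 ± 0.31 in brain (SD, n = 8 each). It was above the median on only 1 of 8 heart and 1 of 8 brain arrays. Its order between heart and brain thus rests on low values, and low signal itself differed between tissues. Untreated brain was the exception for Cxcl10: it read 0.13, with -0.81 to -0.49 on the 7 treated brain arrays. That treated minus untreated difference in brain, -0.84, did not pass over all genes (adjusted p = 0.915, limma).

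Among the inflammatory CC ligands, Ccl9, a mouse monocyte and dendritic cell attractant made by myeloid cells, was the bright one. In liver its level was 5.01 in untreated mice, 4.46 at 1 h, 5.95 at 6 h, 5.77 at 12 h, 6.01 at 24 h, 4.80 at 3 d, 4.67 at 5 d and 4.59 at 10 d. In heart it ran from 2.25 to 3.03 and in brain from -0.15 to 0.61. The 3 tissues did not overlap, and the 6, 12 and 24 h arrays were the highest in liver. The difference was 4.85 between liver and brain (SE 0.22, adjusted p = 3.92e-13, limma), 2.45 between liver and heart (SE 0.22, adjusted p = 1.59e-08, limma) and 2.40 between heart and brain (SE 0.22, adjusted p = 1.61e-08, limma). Kupffer cell markers in liver were also highest at these 3 times, with means (6 genes) of 2.12, 2.14 and 2.05. Their mean was 0.92 to 1.75 on the other treated arrays and 1.59 on the untreated one. On these other 5 arrays it did not follow Ccl9: it was highest at 1 h (1.75), where Ccl9 was lowest (4.46). Hepatocyte markers were also highest at 6, 12 and 24 h, at 8.89, 8.60 and 9.15, with 6.60 to 7.37 on the other 5 liver arrays. The upper tail of all genes was higher at these times too. The part of any of these in the Ccl9 value was not tested.

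The other tested CC ligands lay near the median. Ccl12, a monocyte attractant acting on Ccr2, averaged -0.17 ± 0.16 in liver, 0.62 ± 0.27 in heart and -0.18 ± 0.24 in brain (SD, n = 8 each), which is 0.80 below heart in liver (adjusted p = 2.17e-06, limma) and 0.80 above brain in heart (adjusted p = 1.55e-06, limma). Its second probe gave the same order, at -0.18, 0.52 and -0.16. Ccl6 averaged 0.20 ± 0.23 in liver, 0.58 ± 0.28 in heart and -0.44 ± 0.13 in brain (SD, n = 8 each). Ccl5, the T cell attractant RANTES, averaged 0.28 ± 0.15, 0.14 ± 0.27 and -0.58 ± 0.13 in these tissues (SD, n = 8 each). Liver exceeded brain for Ccl5 by 0.86 (SE 0.11, adjusted p = 7.45e-07, limma), while liver and heart differed by 0.13 (adjusted p = 0.285, limma). The eosinophil attractants Ccl11 and Ccl24, the macrophage ligand Ccl4 and the monocyte attractant Ccl8 had tissue means between -0.67 and 0.43. Of these, Ccl11, Ccl24 and Ccl4 were not called between liver and heart (adjusted p = 0.0622, 0.559 and 0.39, limma). Ccl8 differed by 0.37 between liver and brain, and by 0.01 (adjusted p = 0.928, limma) once all 24 arrays were brought to 1 distribution.

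Cxcl12, the stromal ligand of Cxcr4 that holds stem cells and lymphocytes in place, was bright in every tissue. In liver its level was 6.53 in untreated mice and 6.26, 8.01, 7.65, 7.54, 6.07, 6.91 and 6.14 at the 7 treatment times in order. In heart it was 6.62 in untreated mice and 6.61, 5.83, 5.55, 5.74, 6.11, 5.87 and 6.37. In brain it ran from 3.81 to 4.47. Liver was highest at 6, 12 and 24 h, heart was lowest at those times and at 5 d, and every brain array lay below both. The upper tail of all genes moved the same way on these liver and heart arrays. Its part in the Cxcl12 values was not tested. Liver exceeded brain by 2.82 (SE 0.27, adjusted p = 2.38e-08, limma) and heart exceeded brain by 2.02 (SE 0.27, adjusted p = 2.44e-06, limma). The difference of 0.80 between liver and heart had an adjusted p of 0.0150 (limma), which became 0.0538, 0.0637 and 0.0557 when the arrays of 6, 12 or 24 h were left out. With the mean of all 5 probes in place of the brightest, the differences were 1.37 between liver and brain, 0.96 between heart and brain and 0.41 between liver and heart, all still called (highest adjusted p = 0.0466, limma), and with all 24 arrays brought to 1 distribution liver and heart differed by 0.38.

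The gene has 5 probes, and 3 of them were above the median. In liver, 1 further probe read 1.88 in untreated mice, 2.47 at 1 h, 4.38 at 6 h, 4.11 at 12 h, 3.23 at 24 h, 2.39 at 3 d, 1.65 at 5 d and 2.61 at 10 d. Another read 1.83, 2.14, 4.10, 3.80, 2.47, 2.08, 1.51 and 2.53 at the same times. All 3 bright probes had their highest liver values at 6 and 12 h, and they parted at 5 d, where the chosen probe was above its untreated level and the other two were below theirs. The remaining 2 probes stayed below the median on all 24 arrays.

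**Figure D2:**
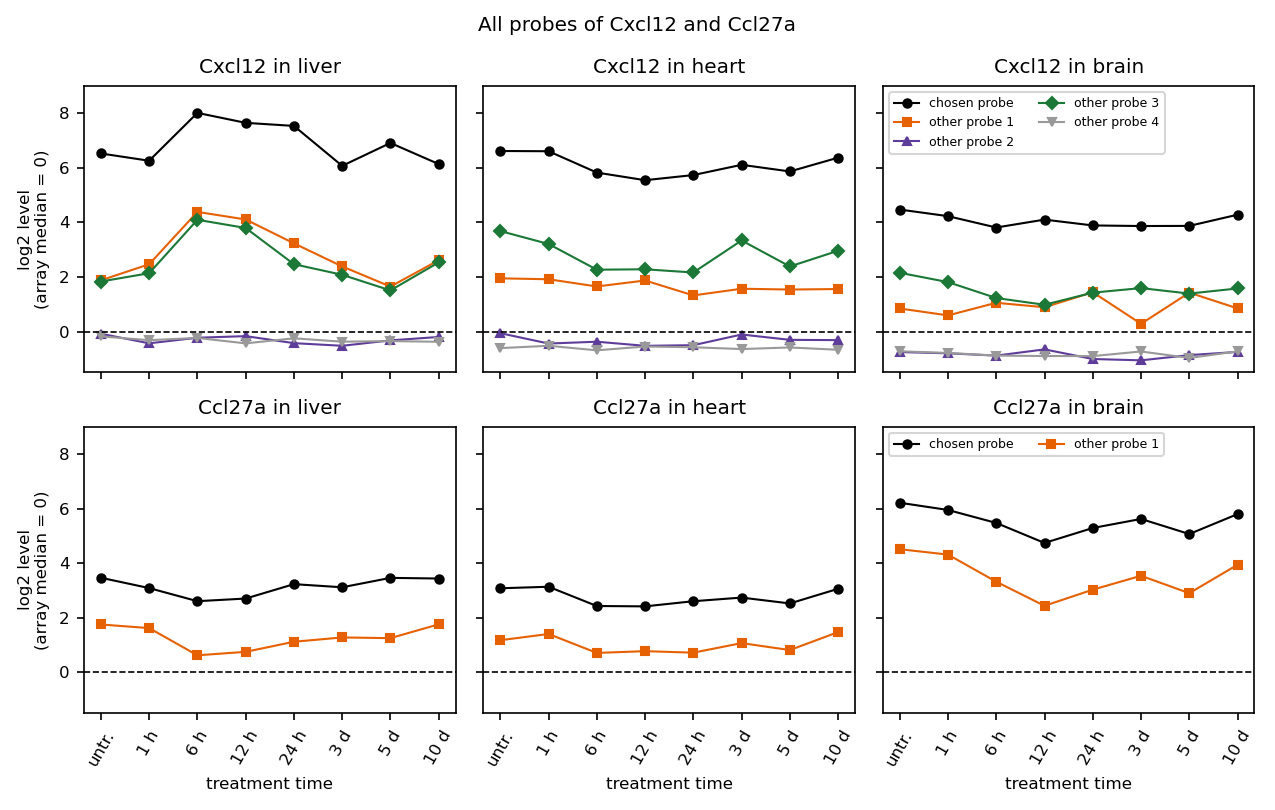
Log2 level relative to the array median for all 5 probes of Cxcl12 (upper row) and both probes of Ccl27a (lower row) on each array, by treatment time, in liver, heart and brain. The 3 bright Cxcl12 probes peak at 6 and 12 h in liver, where the chosen probe reads 8.01 and 7.65, and both Ccl27a probes are lowest at 12 h in brain (4.74 and 2.43).

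Cx3cl1, fractalkine, is a membrane-bound ligand that neurons carry and that metalloproteases such as Adam17 shed. In brain its level was 6.27 in untreated mice, 6.36 at 1 h, 5.65 at 6 h, 5.92 at 12 h, 5.60 at 24 h, 5.61 at 3 d, 5.79 at 5 d and 5.96 at 10 d. In heart it was 1.97, 2.10, 0.67, 0.50, 0.66, 1.04, 0.76 and 1.68 at the same times, and in liver it ran from -0.21 to 0.20. The 3 tissues did not overlap, and the untreated, 1 h and 10 d arrays were the 3 highest in both heart and brain. The difference was -5.89 between liver and brain (SE 0.15, adjusted p = 4.66e-17, limma), -1.17 between liver and heart (SE 0.15, adjusted p = 1.22e-06, limma) and -4.72 between heart and brain (SE 0.15, adjusted p = 1.33e-15, limma).

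Cxcl14 and Ccl27a were the other brain-high ligands. Cxcl14, a ligand of epithelia and of some brain interneurons, read 3.54 in untreated brain and 3.54, 2.61, 2.46, 2.37, 3.40, 2.52 and 3.18 at the 7 treatment times. Its means were -0.09 ± 0.13 in liver, 0.83 ± 0.25 in heart and 2.95 ± 0.51 in brain (SD, n = 8 each), and both liver (-3.04, adjusted p = 1.13e-13, limma) and heart (-2.12, adjusted p = 3.21e-11, limma) were below brain. The second Cxcl14 probe gave the same tissue order (-0.38, 0.07 and 2.22) but not the same course in brain: it read 2.36, 2.26 and 2.50 at 6 h, 24 h and 5 d, 1.51 at 12 h and 2.34 in untreated mice.

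Ccl27a, a ligand of Ccr10 known from skin, read 6.21 in untreated brain and 5.95, 5.47, 4.74, 5.29, 5.62, 5.07 and 5.80 at the 7 times. In heart it read 3.08 in untreated mice and 3.13, 2.43, 2.41, 2.60, 2.74, 2.52 and 3.06. In liver it read 3.46 in untreated mice and 3.08, 2.60, 2.70, 3.23, 3.11, 3.46 and 3.43. Every brain array was above every array of the other tissues, by 2.38 on average against liver (adjusted p = 1.68e-12, limma) and 2.77 against heart (adjusted p = 2.25e-13, limma). In RefSeq (GRCm38.p6) Ccl27a, on chromosome 4 from 41769467 to 41774225, overlaps its neighbour Il11ra1 (41760443 to 41769473) by 7 bases, and a copy named Ccl27b lies on the same chromosome. Probe sequences were not used here, so the probes' signals could not be assigned to a single copy.

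The Ccl21 genes, whose product binds Ccr7 and guides T cells and dendritic cells along lymphatic vessels, differed strongly between brain arrays. Ccl21a in brain read 3.05 in untreated mice, 3.28 at 1 h, -0.25 at 6 h, -0.67 at 12 h, -0.25 at 24 h, 2.75 at 3 d, -0.43 at 5 d and 2.88 at 10 d. In heart it read 4.14, 4.26, 3.03, 3.06, 3.02, 3.64, 3.25 and 3.93 at the same times, and in liver 0.70, 1.02, 1.46, 1.60, 1.71, 0.53, 1.14 and 0.75. In brain and heart the 4 arrays of 6, 12 and 24 h and 5 d were below all others, and in liver those 4 were above all others. Ccl21b and Ccl21c did the same in brain and heart, with brain levels of -0.47 to -0.21 and -0.78 to -0.53 on those 4 arrays and 2.17 to 2.72 and 1.99 to 2.60 on the other 4. In liver they did not. Ccl21b read 0.83 there at 1 h, against 0.70 at 6 h, 0.78 at 24 h and 0.65 at 5 d. Ccl21c read 0.34 in untreated liver and 0.29 at 6 h.

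Averaged over these 4 brain arrays, Ccl21a was -0.40 ± 0.20 (SD, n = 4), against 3.07 ± 0.20 on the untreated, 1 h and 10 d arrays (SD, n = 3). The gap between the lowest of the untreated, 1 h, 3 d and 10 d brain arrays and the highest of the other 4 was 3.00 for Ccl21a, 2.52 for Ccl21c and 2.37 for Ccl21b. These were the largest 3 gaps in that direction among 16110 genes, a ranking made after the values were seen and given as a description. The 3 genes are near-identical copies, so the 3 probes may read the same transcripts and are not independent. Across tissues, heart exceeded liver by 2.43 for Ccl21a (SE 0.51, adjusted p = 0.000378, limma) and brain by 2.25 (SE 0.51, adjusted p = 0.000665, limma). Liver and brain differed by -0.18 (adjusted p = 0.754, limma), with a brain SD of 1.82.

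The promoters of Ccl21a and of the copy that RefSeq calls Ccl21d, for which it lists Ccl21b and Ccl21c as further names, show how close the copies are. A further RefSeq gene named Ccl21b has another start and is not shown. The windows are the 250 bases before the start, at chr4:42773992-42774241 on the minus strand and chr4:41903363-41903612 on the plus strand of GRCm38.p6. Capitals mark the only base that differs.
Ccl21a: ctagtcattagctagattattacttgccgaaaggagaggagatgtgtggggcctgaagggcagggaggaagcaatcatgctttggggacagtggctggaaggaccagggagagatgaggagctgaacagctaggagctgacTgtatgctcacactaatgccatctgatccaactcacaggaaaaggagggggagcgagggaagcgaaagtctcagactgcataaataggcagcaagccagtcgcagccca
Ccl21d: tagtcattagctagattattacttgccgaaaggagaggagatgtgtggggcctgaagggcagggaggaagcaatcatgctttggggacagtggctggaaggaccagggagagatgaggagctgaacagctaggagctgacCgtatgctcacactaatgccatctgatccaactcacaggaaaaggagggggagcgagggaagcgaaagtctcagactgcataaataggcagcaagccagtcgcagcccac
Over 249 aligned bases 248 were identical, and the substitution is T142C, counted from 1 at the 5′ end of the Ccl21a window.

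Vessel markers as lists were also low in heart on the 4 arrays where the Ccl21 genes were low. The 6 endothelial markers averaged 2.70, 2.78, 2.80 and 2.74 at 6 h, 12 h, 24 h and 5 d in heart, with 2.96, 3.06 and 2.97 at 1 h, 3 d and 10 d and 3.42 in untreated mice. The 5 smooth muscle and pericyte markers averaged 2.39, 2.20, 2.18 and 2.22 on those 4 heart arrays, with 2.71, 2.50 and 2.52 at 1 h, 3 d and 10 d and 2.62 in untreated mice. Single markers did not all do so: Cdh5, the cadherin of endothelial junctions, read 3.49 in untreated heart and 3.12, 1.93, 2.22, 2.21, 2.77, 2.08 and 2.70 at the 7 times, while Lyve1, a hyaluronan receptor of lymphatic and sinusoidal endothelium, read 0.61 and 0.78, 2.13, 1.67, 1.96, 1.73, 1.81 and 0.95 in the same order. In brain the smooth muscle and pericyte list averaged 0.43, 0.45, 0.29 and 0.42 on the 4 arrays, with 0.68, 0.53 and 0.72 at 1 h, 3 d and 10 d and 0.79 in untreated mice, and the endothelial list ran from 0.79 to 1.10 on treated and read 1.25 on untreated arrays. Their part in the Ccl21 values was not tested. Ackr4, the scavenging receptor that removes Ccl19 and Ccl21, read -0.03 in untreated heart and -0.17, 0.41, 0.54, 0.65, 0.21, 0.68 and -0.04, high on the arrays where Ccl21a was low.

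Ccl19, the other Ccr7 ligand, averaged 0.58 ± 0.19 in liver, 0.89 ± 0.36 in heart and 0.14 ± 0.21 in brain (SD, n = 8 each). Its difference of -0.30 between liver and heart (adjusted p = 0.0387, limma) was lost when the arrays of untreated mice, 1 h, 3 d, 5 d or 10 d were left out (adjusted p = 0.0649 to 0.156, limma), and it was -0.02 with an adjusted p of 0.861 (limma) once all 24 arrays were brought to 1 distribution. Cxcl16, a membrane-bound ligand of Cxcr6 that is also shed, was higher in liver than brain by 1.49 (SE 0.08, adjusted p = 7.28e-12, limma) and in heart than brain by 1.92 (SE 0.08, adjusted p = 2.21e-13, limma). Its difference of -0.43 between liver and heart (adjusted p = 0.000196, limma) became -0.08 with an adjusted p of 0.396 (limma) under that scaling. Ccl25, a ligand of Ccr9 known from thymus and small intestine, averaged 0.93 ± 0.28 in liver, 0.55 ± 0.15 in heart and 1.35 ± 0.18 in brain (SD, n = 8 each). Its difference between liver and brain, -0.41 (adjusted p = 0.000866, limma), turned to 0.18 (adjusted p = 0.136, limma) under that scaling. Cxcl13, the B cell attractant, reached 1.27 at 1 h in liver, with -0.38 to 0.42 on the other 7 liver arrays, and read 0.55 and 0.77 in untreated and 1 h heart, with -0.50 to -0.06 at the other 6 times. The 1 h liver array also carried cardiomyocyte genes, whose part in its Cxcl13 value was not tested.

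Of the 3 tested receptors, Cx3cr1, the fractalkine receptor of microglia and some monocytes, was brain-high like its ligand. It read 3.19 in untreated brain and 3.17, 2.10, 2.49, 1.98, 3.47, 2.35 and 2.82 at the 7 times. Its means were -0.05 ± 0.22 in liver, 0.73 ± 0.25 in heart and 2.70 ± 0.55 in brain (SD, n = 8 each), and the brain arrays did not overlap the others. Liver was 2.75 below brain (SE 0.17, adjusted p = 4.75e-11, limma) and heart 1.96 below brain (SE 0.17, adjusted p = 8.4e-09, limma). The 7 microglia markers on the array were low with it: they averaged 1.11, 0.81, 1.15 and 1.20 in brain at 6 h, 12 h, 24 h and 5 d, with 1.44, 1.30 and 1.44 at 1 h, 3 d and 10 d and 1.48 in untreated mice. Single markers differed: Tmem119 read 1.70 in untreated brain and 1.86, 1.09, 0.94, 1.08, 1.37, 1.13 and 1.64 at the 7 times, P2ry12 read -0.27 and -0.45, 0.20, 0.15, 0.35, 0.12, 0.34 and -0.33, and Siglech stayed between 1.28 and 1.69. Their part in the Cx3cr1 values was not tested.

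Cxcr4, the Cxcl12 receptor, averaged -0.14 ± 0.12 in liver, 0.50 ± 0.16 in heart and -0.30 ± 0.13 in brain (SD, n = 8 each). Heart was 0.80 above brain and liver 0.64 below heart, in the mean. Its difference of 0.16 between liver and brain (adjusted p = 0.0335, limma) was lost when the arrays of 1 h, 6 h, 12 h, 3 d or 10 d were left out (adjusted p = 0.0581 to 0.105, limma), and it was 0.0015 with an adjusted p of 0.987 (limma) under the scaling of all 24 arrays to 1 distribution. Ccr6, the receptor of Ccl20, averaged -0.11, -0.11 and -0.17 in liver, heart and brain and was called in no tissue comparison (heart minus brain 0.07, adjusted p = 0.494, limma). The other 15 receptors had no level above 0.28 on any array.

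Each treatment time was then set against untreated, with the 3 tissues as replicates (limma with Benjamini-Hochberg adjustment, 3 arrays each, tissue as a block, the same 3 untreated arrays in all 7 comparisons). Of the 25 members, 0 were called at 1 h (0% of all genes), 2 at 6 h (3.33%, with 2.25% lower), 2 at 12 h (5.37%, with 4.05% lower), 1 at 24 h (2.7%, with 1.92% lower), 0 at 3 d (0.32%), 1 at 5 d (1.98%, with 1.25% lower) and 0 at 10 d (0%). All of these calls were falls, and they belonged to Cxcl16 and Ccl27a. At an unadjusted p under 0.05, the counts were 0, 5, 9, 7, 4, 9 and 1 in the same order. Of all 10934 tested genes, 95, 2043, 2308, 1929, 1375, 1984 and 126 passed that cut. The median change of the 25 members was -0.06 at 1 h, -0.29 at 6 h, -0.26 at 12 h, -0.32 at 24 h, -0.25 at 3 d, -0.39 at 5 d and -0.09 at 10 d. Over all genes it was -0.03, -0.04, -0.07, -0.04, -0.10, -0.10 and -0.05.

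Cxcl16 fell at 4 of the 7 times. In liver it read 1.62 in untreated mice, 1.63 at 1 h, 1.13 at 6 h, 1.34 at 12 h, 1.24 at 24 h, 1.39 at 3 d, 0.88 at 5 d and 1.53 at 10 d. In heart it read 2.38, 2.27, 1.44, 1.51, 1.36, 1.79, 1.65 and 1.76, and in brain 0.29, 0.21, -0.26, -0.48, -0.39, -0.16, -0.24 and -0.17. At 6 h, 12 h, 24 h, 3 d, 5 d and 10 d it was below the untreated array in all 3 tissues. The change was -0.66 at 6 h (SE 0.14, adjusted p = 0.0162, limma), -0.64 at 12 h (adjusted p = 0.0154, limma), -0.69 at 24 h (adjusted p = 0.0144, limma) and -0.66 at 5 d (adjusted p = 0.0222, limma). It was -0.42 at 3 d (adjusted p = 0.186, limma) and -0.39 at 10 d (adjusted p = 1.00, limma).

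Ccl27a fell at 6 h, by a log2 value of 0.75 (SE 0.20, adjusted p = 0.0440, limma), and at 12 h, by 0.97 (SE 0.20, adjusted p = 0.0128, limma). The 6 h call was lost under both quantile normalizations and with a variance trend and robust moderation (adjusted p = 0.0684, 0.0744 and 0.0774, limma). Its changes of -0.54 at 24 h and -0.57 at 5 d were not called (adjusted p = 0.148 and 0.130, limma). The second Ccl27a probe read 4.51 in untreated brain and 3.32 and 2.43 at 6 and 12 h, and so was lower there too. In a test for a difference at any time, Cxcl16 (adjusted p = 0.0122, limma) and Ccl27a (adjusted p = 0.0465, limma) were the members called, 2 of 25, where 4.31% of all genes were.

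These calls rest on few arrays. Without the 12 h brain array, an alternative added after the data were seen, no member was called at 12 h (Ccl27a -0.82, adjusted p = 0.0623; Cxcl16 -0.56, adjusted p = 0.0658, limma). Without all brain arrays, or without all heart arrays, 0 were called at any time. Without liver the counts grew to 6 of 25 at 6 h (13.6% of all genes), 8 at 12 h (24.8%), 6 at 24 h (15%), 5 at 5 d (12.6%) and 0 at 1 h, 3 d (1.57%) and 10 d. All fell: Ccl21b, Ccl21c, Ccl27a, Cxcl12 and Cxcl16 at each of those 4 times, Cx3cl1 at 6, 12 and 24 h, and Ccl21a and Cxcl14 at 12 h. The Ccl21 genes are not independent entries in these counts, since their probes may read the same transcripts. Cxcl12, for example, changed by -0.72, -0.72, -0.73 and -0.67 at 6 h, 12 h, 24 h and 5 d over heart and brain (adjusted p = 0.0276, 0.0173, 0.0263 and 0.0375, limma, 2 arrays each), while in liver it was above its untreated level at all 4 of these times. These are values of its chosen probe. In liver the other bright probes were below their untreated levels at 5 d, and the probes also disagreed in brain. At these 4 times 1 further bright probe read 1.05, 0.89, 1.44 and 1.42 in brain, against 0.84 in untreated mice, and so was higher. The third bright probe read 1.23, 0.98, 1.42 and 1.39 there, against 2.15 in untreated mice, and so was lower.

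**Figure D3:**
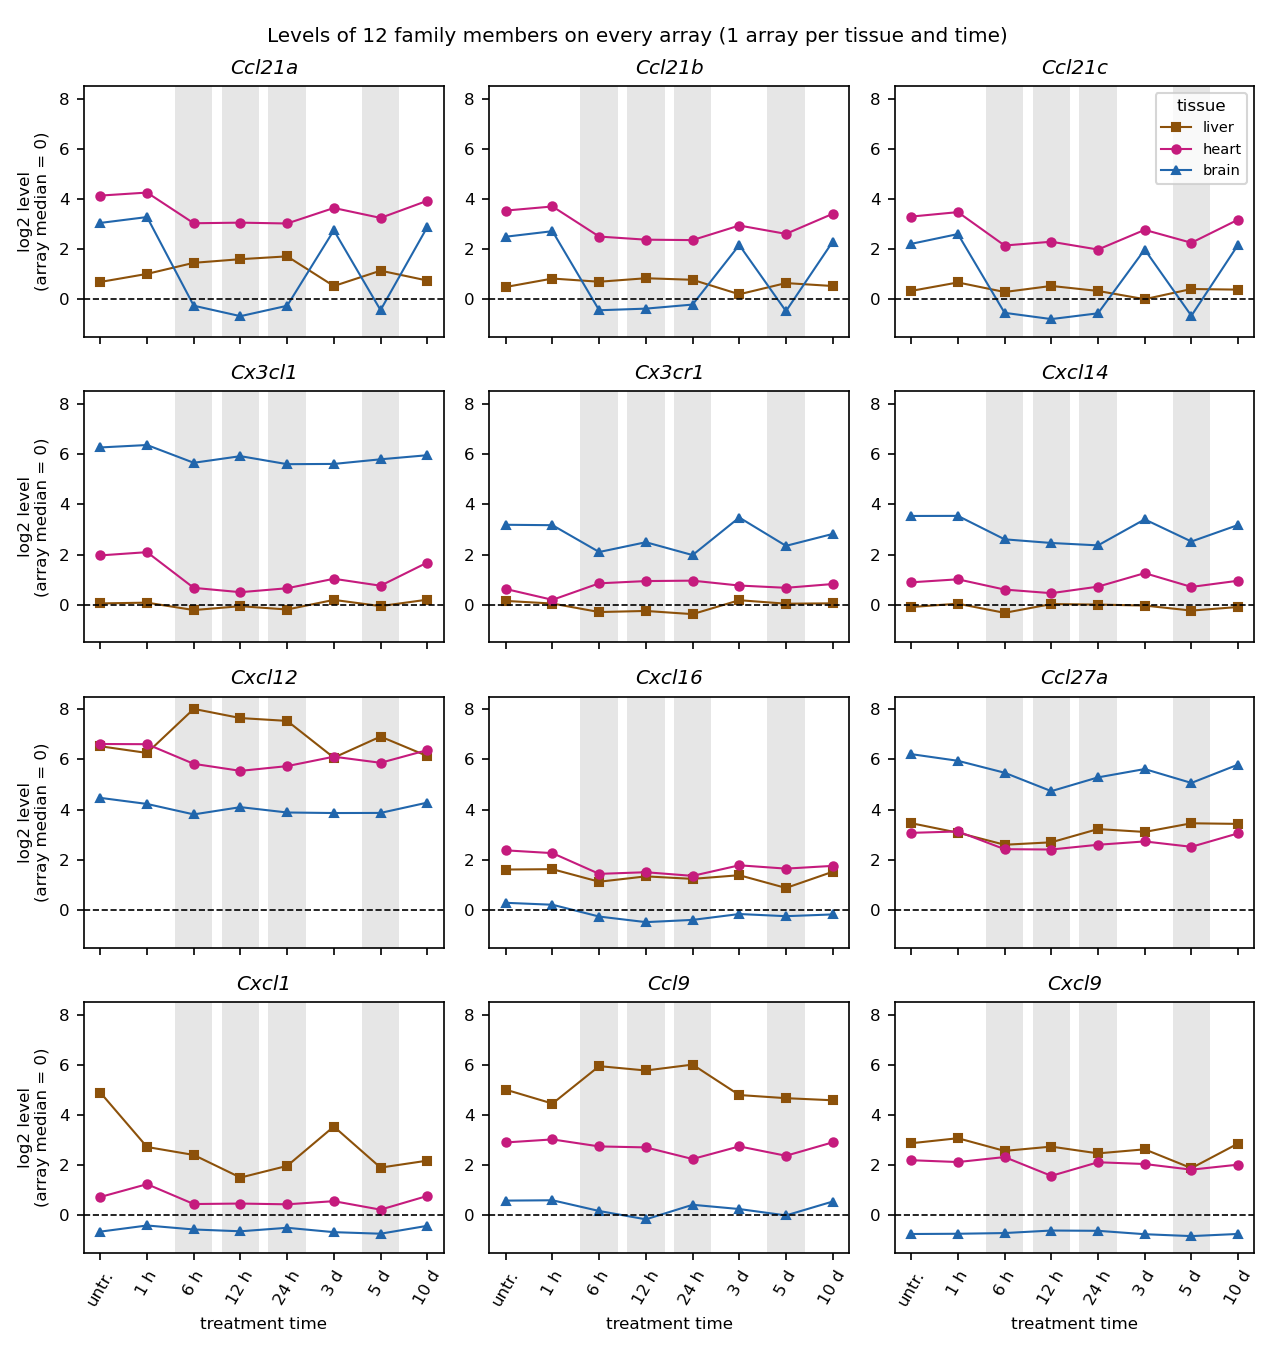
Log2 level relative to the array median of 12 members on every array, by treatment time from untreated to 10 d, in liver (squares), heart (circles) and brain (triangles), with 1 array per point. Grey bands mark the arrays of 6 h, 12 h, 24 h and 5 d, which share a lower tail of values, as does the 3 d array in heart. The Ccl21 genes lie below 0 in brain inside the bands and between 1.99 and 3.28 outside them.

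The 4 arrays of 6, 12 and 24 h and 5 d were also set against the untreated, 1 h and 10 d arrays of the same tissue, without a test. In liver 4 of the 25 members were lower on all 4 (7.98% of all genes) and 2 were higher (18.5%). In heart 15 were lower (37.5%) and 1, Ccl5, was higher (10.8%), and in brain 13 were lower (27%) and 0 were higher (14.1%). Both of these lower sets include Ccl21a, Ccl21b and Ccl21c, whose probes may read the same transcripts and are not independent. The liver members were Cx3cl1, Cx3cr1, Cxcl16 and Cxcl9, all lower, and Ccl21a and Cxcl12, both higher. Ccl21b and Ccl21c were not higher on all 4 liver arrays. The Cxcl12 values are those of its chosen probe, and its other bright probes were below untreated in liver at 5 d. Cxcl12 averaged 7.53 ± 0.46 on the 4 liver arrays (SD, n = 4), against 6.31 ± 0.20 on the other 3 (SD, n = 3), and in heart 5.74 ± 0.14 (SD, n = 4) against 6.53 ± 0.14 (SD, n = 3). Cx3cl1 in heart averaged 0.65 ± 0.11 (SD, n = 4) against 1.91 ± 0.21 (SD, n = 3). Cx3cr1 in brain averaged 2.23 ± 0.23 (SD, n = 4) against 3.06 ± 0.21 (SD, n = 3), and Cxcl14 in brain 2.49 ± 0.10 (SD, n = 4) against 3.42 ± 0.21 (SD, n = 3). At 3 d these brain levels were 3.47 and 3.40, and the Ccl21 genes were likewise near their untreated levels. The Cxcl14 values are those of its chosen probe. Its second probe stayed near its untreated brain level at 6 h, 24 h and 5 d and was lower at 12 h.

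Single treated arrays were compared with the untreated array of their tissue as a description, with no replicate check. At least a 2-fold change at any time, with the brighter array above its median, was seen for 4 of 25 members in liver (Ccl21a, Cxcl1, Cxcl12 and Cxcl13, where 19% of all genes changed so far). In heart it was seen for 8 (Ccl19, Ccl21a, Ccl21b, Ccl21c, Cx3cl1, Cxcl12, Cxcl13 and Cxcl16, with 10.1% of all genes), and in brain for 6 (Ccl21a, Ccl21b, Ccl21c, Ccl27a, Cx3cr1 and Cxcl14, with 15.3%). In heart and brain all of these were falls, and none came at 1 h, 3 d or 10 d. In liver Cxcl1 fell at least 2-fold at all 7 times, Cxcl13 was higher at 1 h only, Cxcl12 was higher at 6, 12 and 24 h and Ccl21a was higher at 24 h. Ccl21b and Ccl21c changed by 0.29 and -0.0011 in liver at 24 h. The liver arrays of 1 h and 24 h were those that also carried cardiomyocyte genes.

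**Figure D4:**
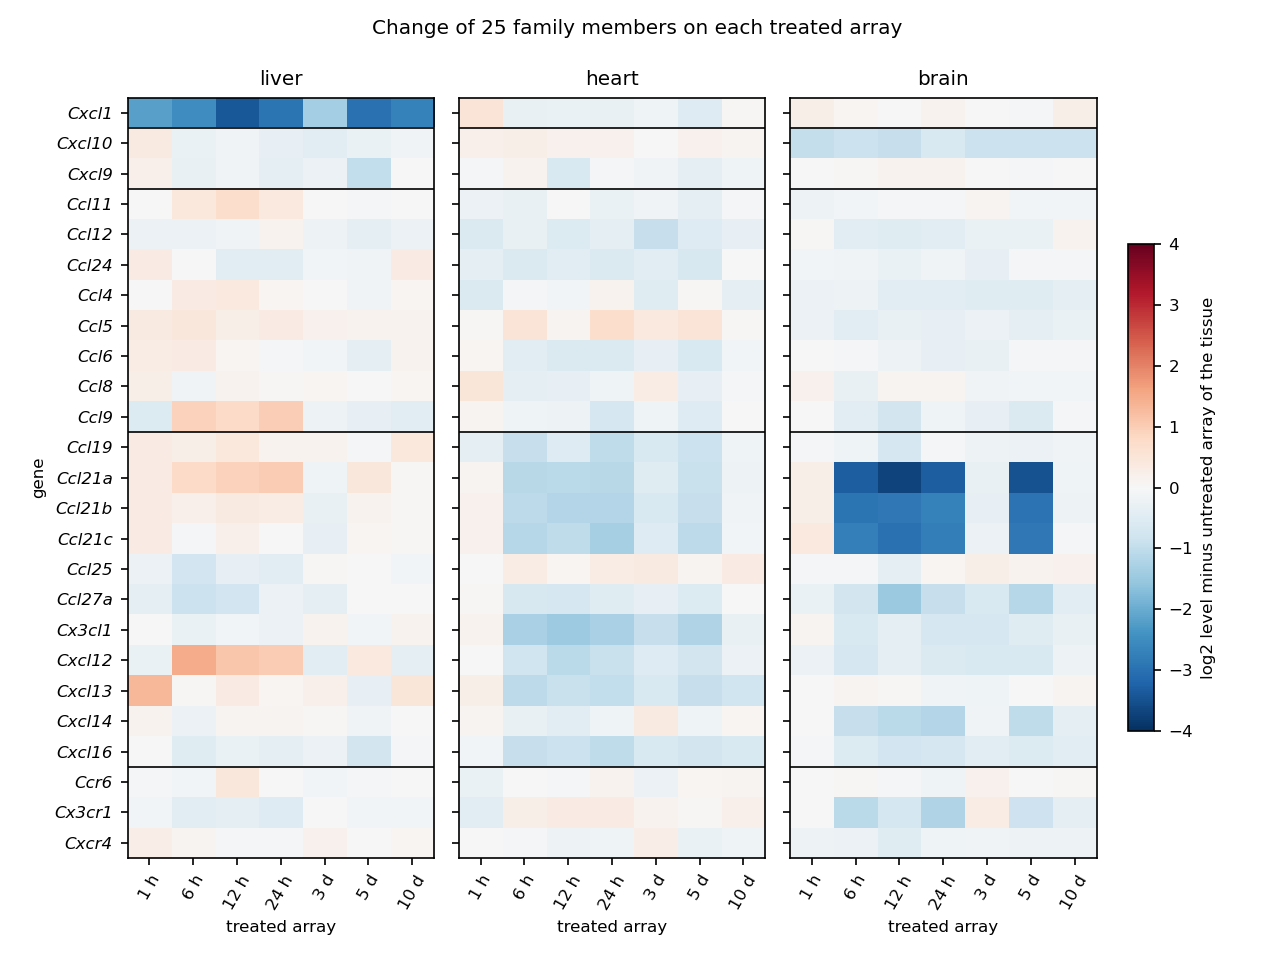
Change of the 25 tested members on each treated array, as log2 level minus the untreated array of the same tissue, in liver, heart and brain (blue lower, red higher, 1 array against 1). Cxcl1 in liver is lower at all 7 times, by 1.35 at 3 d and 3.39 at 12 h, and the 3 Ccl21 genes in brain are lower at 6 h, 12 h, 24 h and 5 d, by 3.71 for Ccl21a at 12 h.

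All treated arrays together were compared with untreated (limma with Benjamini-Hochberg adjustment). Over the 3 tissues 0 of 25 members were called (0% of all genes). At an unadjusted p under 0.05 there were 5, with 1215 of all 10934 genes: Ccl12 (-0.31), Ccl27a (-0.52), Cxcl1 (-0.87), Cxcl10 (-0.29) and Cxcl16 (-0.50). In liver 0 were called (0% of all genes, 1 at an unadjusted p under 0.05, which was Cxcl1), in heart 0 (0.11%, 4 at an unadjusted p under 0.05: Ccl12, Ccl19, Cx3cl1 and Cxcl16) and in brain 0 (0%, 2 at an unadjusted p under 0.05: Ccl27a and Cxcl10). Whether the change differed between tissues was called for 0 members (0.0274% of all genes, 2 at an unadjusted p under 0.05, Cxcl1 and Cxcl10). All 7 treated arrays lay below the untreated one for 2 members in liver (11% of all genes), 5 in heart (25.5%) and 9 in brain (19.6%), and above it for 1 in liver (5.27%), 2 in heart (10.7%) and 0 in brain (8.91%). The heart members that lay below were Ccl12, Ccl19, Ccl24, Cxcl12 and Cxcl16. The untreated heart array stood apart in other cell types: the 6 white fat genes averaged -0.10 to 0.37 on treated heart arrays and 1.77 on the untreated one, and S100a8 read 0.02 to 1.23 on treated and 2.99 on untreated heart. Their part in the heart changes was not tested.

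Genes that work with the family were read from lists, whose counts stand against the shares of all tested genes: 30.6% higher and 45.6% lower between liver and brain, 24.7% and 40.6% between liver and heart, and 34.3% and 37% between heart and brain. Of 9 atypical receptors and platelet chemokines, 8 were tested. Between liver and brain 4 were higher and 2 lower, between liver and heart 1 was higher and 6 were lower, and between heart and brain 6 were higher and 1 was lower, with medians of 0.27, -0.78 and 0.80. The lower one between heart and brain was Ackr1, the Duffy receptor that binds many chemokines without signalling. It read 0.01 to 0.70 in liver, -0.32 to 0.23 in heart and 3.91 to 4.67 in brain (liver minus brain -3.77, adjusted p = 3.47e-16, limma). The platelet chemokines Pf4 and Ppbp averaged 2.31 and 2.34 higher in heart than in brain. Ackr3, which scavenges Cxcl12, averaged 1.01 lower in liver than in heart. These 3 genes passed the filter only through heart, so no p is given for them. No gene of this list was called at any treatment time.

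Of 11 interferon-related inducers, 8 were tested and all 8 were higher in liver than in brain and in heart than in brain, while between liver and heart 5 were higher and 2 lower (medians 1.37, 1.13 and 0.32). Irf1, a transcription factor that induces Cxcl9 and Cxcl10, was 2.67 higher in liver than brain (SE 0.15, adjusted p = 7.26e-12, limma) and 2.27 higher in heart than brain (adjusted p = 1.09e-10, limma). Of 19 NF-kB and cytokine genes, 14 were tested, with 10 higher and 1 lower between liver and brain, 4 higher and 4 lower between liver and heart, and 10 higher and 0 lower between heart and brain. Relb, a subunit of NF-kB, fell by 0.91 at 6 h, 0.83 at 12 h, 0.83 at 24 h and 0.84 at 5 d (adjusted p = 0.0114, 0.0151, 0.0184 and 0.0246, limma). At these times 3.33%, 5.37%, 2.7% and 1.98% of all genes were called, and the arrays of these times share a lower tail. Nfkbie, an inhibitor of NF-kB, fell by 0.50 at 24 h (adjusted p = 0.0468, limma).

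Of 17 receptor signalling genes, 14 were tested, with 2 higher and 11 lower between liver and brain, 2 higher and 8 lower between liver and heart, and 4 higher and 9 lower between heart and brain (medians -0.88, -0.37 and -0.48). Arrb1, the arrestin that ends receptor signalling, was 2.09 lower in liver than brain (adjusted p = 1.28e-11, limma). Rac1, a GTPase of the moving cell edge, fell by 0.59 at 6 h and 0.64 at 24 h (adjusted p = 0.0279 and 0.0190, limma). Of 9 matrix and processing genes, 7 were tested, with 6 higher and 0 lower between liver and brain, 3 and 3 between liver and heart, and 4 and 1 between heart and brain. Dpp4, the dipeptidase that clips and inactivates Cxcl12 and Cxcl10, was 5.29 higher in liver than brain and 4.27 higher in liver than heart (adjusted p = 2.51e-13 and 1.15e-11, limma). Adam17, which sheds Cx3cl1, was 0.51 higher in liver than brain and 1.00 higher in heart than brain (adjusted p = 1.81e-05 and 2.56e-09, limma). Hspg2, the heparan sulfate proteoglycan perlecan, fell by 0.84 at 6 h (adjusted p = 0.0293, limma).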

How the data were processed

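Total RNA of each tissue was amplified to biotinylated cRNA and hybridised to Illumina bead arrays, per the labels' protocols. The values are the log2 values of the table deposited by the authors, 25697 probes by 24 arrays. Base 2 is an assumption, since no label gives the base. How the authors corrected for background and normalized is not given in the sources used here. A second deposited table was not used, because the names of its 24 value columns do not match the samples' labels, so detection p-values and bead counts were not used and a gene counted as detected where it lay above the array median. Signal over background is therefore unknown, and the number of arrays limits the precision.

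Gene names came from the platform annotation (23141 probes with 1 symbol, 2556 with none). Each gene was read from its highest-mean probe. Genes above the array median on at least 4 of 24 arrays (10934) were fitted without further normalization by lmFit and eBayes of limma (version 3.58.1, R version 4.3.3). Tests were two-sided, adjusted by Benjamini-Hochberg over all of them, and called at an adjusted p under 0.05. The fits used tissue and time as additive terms, or a mean for each tissue and treatment, in which the lone untreated array of a tissue is assumed to vary like the treated arrays. The procedure was tested on simulated data. Tables were joined with Python 3.11.15 and pandas 2.3.3. Spread between these samples is all that the p-values measure, and the samples are of different times or tissues.

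Members were named with values where called in a test, at least 2-fold changed on a single array with the brighter array above its median, or at a mean of at least 1 in a tissue, together with neighbours of the same role. The members, roles and gene lists were chosen with earlier results of these data known. Alternatives were 2 quantile normalizations, a median shift, no detection filter, robust eBayes with a variance trend, probe means per gene, detection on all 8 arrays of a tissue, leaving out each time or tissue, the untreated, 1 h and 10 d arrays alone, and, for single arrays, a 1.5-fold threshold, both arrays above the median, or the other 7 arrays' mean as reference. Leaving out the 12 h brain array was added after seeing the data.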

Additional observations from a re-analysis of the deposited data

Results flagged for a closer look

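In 5 of 75 combinations of tissue and tested member, 1 of the 8 arrays stood far from the others by Dixon's test, where chance gives about 1 in 20. The arrays of a tissue are of different times, so these are not replicates that disagree. The 12 h brain array was the lowest of its tissue for Ccl19 (-0.33, with 0.10 to 0.35 on the others) and for Cxcr4 (-0.58). The 12 h liver array was the highest for Ccr6 (0.33, with -0.23 to -0.11 on the others). The 1 h heart array was the lowest for Cx3cr1 (0.20). The untreated brain array was the highest for Cxcl10 (0.13).

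Ccl5 differed in direction between tissues. Every treated array was above the untreated one in liver (mean 0.26 higher) and in heart (0.33 higher), and every treated array was below it in brain (mean -0.32). The treated minus untreated difference was 0.58 higher in liver than in brain and 0.64 higher in heart than in brain. The F test of a difference between tissues did not pass (adjusted p = 1.00, limma with Benjamini-Hochberg adjustment). In brain all Ccl5 levels were below the array median, from -0.74 to -0.31.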

How the results depend on the processing

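Without the detection filter, 48 members were called between liver and brain, 40 between liver and heart and 49 between heart and brain, where 81.8%, 69.4% and 74% of all genes were. The 6 h count was 1 in place of 2 under both quantile normalizations and with a variance trend, and the count of members differing at any time was 1 under these settings, without the filter and without the 12 h brain array. Without that array the 12 h count was 0, and with a variance trend 1 member was called between treated and untreated liver. Leaving out each tissue or time in turn gave 0 to 6 members at 6 h, 0 to 8 at 12 h, 0 to 6 at 24 h, 0 to 5 at 5 d, 0 to 7 at any time, 0 to 1 between treated and untreated liver and 0 to 1 for the difference between tissues. In each time comparison the lowest count came without brain or without heart and the highest without liver, and both counts of 1 came without the 3 d arrays. For single arrays, a 1.5-fold threshold gave 10 members in liver, 15 in heart and 12 in brain. The other 7 arrays' mean as reference gave 1 in heart and 3 in brain. Requiring both arrays above the median gave 3 in brain, and both quantile normalizations gave 3 in heart. The shares of all genes under these single-array settings were not counted. Among named members, 1 direction turned: Ccl25 between liver and brain was 0.18 with all 24 arrays brought to 1 distribution. Under that scaling the median of all genes between liver and brain was 0.01, against -0.16 as deposited, and the calls between liver and heart became 8 higher and 10 lower. Of the other called differences, that scaling moved Ccl25 to -0.51 between heart and brain, Ccl19 to 0.75 between liver and brain, and Ccl25 and Ccl27a to 0.69 and 0.64 between liver and heart, and probe means moved Ccl11 to 0.40 between heart and brain and 0.22 between liver and brain, all still called. The cause was not tested. Outside the leave-one-out settings, 538 comparisons of named members with an alternative kept direction and call, 10 lost the call and 1 gained it.

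The labels give no replicate numbers, so no samples were paired by number, and only times or tissues served as blocks. With 1 array per tissue and time, no change in a single tissue has a replicate check, and 6 h, 12 h, 24 h and 5 d cannot be told apart from the set of arrays that shares their lower tail. Low members are limited by a detection measure that is only the array median.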

Other observations

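Ligands and their receptors can be read side by side among the tested members. Both sides of a pair were above the median on all 8 arrays of a tissue for Cx3cl1 with Cx3cr1 in heart and in brain, and for Cxcl12 with Cxcr4 in heart. In liver no tested receptor met this: Cxcr4 was above the median on the 1 h array alone (0.06), although its ligand Cxcl12 was far above it on all 8. In brain Cxcr4 was below the median on all 8 arrays. The receptors of Ccl21a (Ccr7), Cxcl1 (Cxcr2), Cxcl9 (Cxcr3), Cxcl16 (Cxcr6) and Ccl27a (Ccr10) lay too low in all 3 tissues to be tested.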
